A study of Sus scrofa with 8 samples.

Results

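Retinoic acid synthesis and signalling was followed through 9 genes: the retinal dehydrogenases ALDH1A1, ALDH1A2 and ALDH1A3, the binding proteins RBP2, RBP4 and CRABP2, and the retinoic acid receptors RARA, RARB and RARG. The genes were taken by symbol, and each symbol matched 1 pig Ensembl gene, so that 9 of the 31907 genes in the count files were described. All 9 passed the filter on low counts. The series measured messenger RNA in 8 libraries of tissue from Guizhou minipigs aged 8 months, in a study that used the animal's own peritoneum to replace the mucosa of a neobladder, a urinary reservoir built from ileum. The 4 groups held 2 libraries each: native bladder mucosa (MNB), normal peritoneum (NP), mucosa of the experimental neobladder (MN-Exp) and mucosa of the control neobladder (MN-Ctrl). The labels give no time after surgery, do not state the lining of either neobladder and do not tell if replicates were different animals. Each p-value therefore measures the spread between these samples only, which may be technical.

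Retinoic acid is made from vitamin A in steps. Retinol is carried in blood by RBP4 and inside cells of the intestinal lining by RBP2, is oxidised to retinal by retinol dehydrogenases, and retinal is oxidised irreversibly to retinoic acid by the ALDH1A enzymes. Retinoic acid is brought to the nucleus by CRABP2, where it binds the receptors RARA, RARB and RARG, which pair with retinoid X receptors on DNA, while CYP26 enzymes break it down. In the bladder, retinoid signalling is known for its part in forming and renewing the urothelium, in mesothelium ALDH1A2 is an established marker, and in the intestine retinoic acid made by epithelium and dendritic cells directs lymphocytes to the gut.

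Library totals ran from 7.94 to 11.88 M counts. The trimmed-mean scaling factors of the control neobladder libraries, 0.839 and 0.449, lay below those of the other 6 libraries (1.088 to 1.239). Levels are CPM, counts per M of the scaled library total, on which 3 counts in a library correspond to 0.224 to 0.562 CPM. Scaled by library totals alone, the median log2 difference of all genes between experimental and control neobladder moved from 0.11 to 0.89, and that between control neobladder and native bladder from -0.11 to -0.97. The labels were checked against defining markers. The summed level of 8 of 9 listed urothelial markers was 8873 to 9877 CPM in native bladder, 4321 to 8412 CPM in experimental neobladder, 502 to 969 CPM in peritoneum and 66.5 to 154 CPM in control neobladder. In peritoneum most of that sum was UPK1B (309 and 573 CPM) and KRT7 (159 and 360 CPM), with UPK1A at 0. The summed level of 11 of 13 enterocyte markers was 41608 to 160601 CPM in control neobladder. It was at most 135 CPM in the other 6 libraries. Most of the control sum was FABP6, at 31351 and 157528 CPM. For goblet cells, 4 of 5 markers summed to 12023 to 14047 CPM in control neobladder and at most 83.8 CPM elsewhere. Of 6 matched mesothelial markers out of 9, CALB2 was at 0 in every library, and the sum was 239 to 287 CPM in peritoneum and at most 12.1 CPM elsewhere. In bulk tissue such as this, fewer cells of a type and less RNA per cell cannot be told apart, and this holds for every level below.

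The 3 retinal dehydrogenases were distributed differently over the 4 tissues. In native bladder and experimental neobladder ALDH1A1 and ALDH1A2 were both present and ALDH1A3 was at its lowest. In control neobladder ALDH1A2 was close to the counting floor and ALDH1A3 was high. Peritoneum had the highest ALDH1A2 and the lowest ALDH1A1.

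ALDH1A2, the dehydrogenase best known from embryonic mesoderm and mesothelium (ENSSSCG00000025578, chromosome 1, 113932722 to 114037059, Sscrofa11.1), was measured at 31.3 and 34.4 CPM in the native bladder libraries, 50.0 and 41.4 CPM in experimental neobladder, 0.980 and 0.749 CPM in control neobladder, and 139 and 129 CPM in peritoneum. The control libraries held 9 and 4 counts of it, below every other library, and no 2 groups overlapped. The control neobladder lay 52.8-fold below the experimental neobladder (log2 difference of experimental minus control 5.67 ± 0.44 SE, edgeR adjusted p = 4.35e-05) and 38.0-fold below native bladder (log2 -5.20 ± 0.44, edgeR adjusted p = 5.23e-05). Peritoneum was 4.08-fold above native bladder (edgeR adjusted p = 0.00236), a call lost without native bladder replicate 1 (0.0516). It was 2.93-fold above the experimental neobladder (edgeR adjusted p = 0.00759), and that call was lost without peritoneum replicate 1 (0.0543) and without either experimental library (0.0608 and 0.12). Between experimental neobladder and native bladder the log2 difference was 0.47 with a 95% interval of -0.26 to 1.20. WT1, a transcription factor that marks mesothelium, was at 0 and 0.0927 CPM in the experimental neobladder libraries, against 27.7 and 25.3 CPM in peritoneum.

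ALDH1A3, the dehydrogenase associated with surface epithelia and glands (ENSSSCG00000004822, chromosome 1, 139451080 to 139491514), was measured at 13.7 and 3.36 CPM in native bladder, 6.02 and 3.89 CPM in experimental neobladder, 148 and 94.6 CPM in control neobladder, and 124 and 332 CPM in peritoneum. Native bladder and experimental neobladder formed a low pair of overlapping groups, and control neobladder and peritoneum a high pair that also overlapped. The control neobladder was 24.5-fold above the experimental neobladder (log2 difference of experimental minus control -4.61 ± 0.74, edgeR adjusted p = 0.00194) and 14.3-fold above native bladder (log2 3.83 ± 0.71, edgeR adjusted p = 0.00424). The native bladder libraries differed from each other, and the latter log2 difference was 5.16 without the first and 3.14 without the second. Peritoneum was 26.8-fold above native bladder (log2 4.75, edgeR adjusted p = 0.00162; 6.06 without native bladder replicate 1, 4.04 without replicate 2 and 3.80 without peritoneum replicate 2). It was 46.0-fold above the experimental neobladder (log2 difference of experimental minus peritoneum -5.52, edgeR adjusted p = 0.000736; -4.61 without peritoneum replicate 2). Within the high pair the difference of control neobladder minus peritoneum was -0.91 on the log2 scale, with an interval of -2.32 to 0.50. In the RefSeq annotation of Sscrofa11.1 this gene overlaps a protein-coding locus, LOC106509041. The strand setting of the counting is not given in the sources used here, so reads of the overlap cannot be assigned with certainty.

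ALDH1A1, the dehydrogenase of many adult epithelia (ENSSSCG00000028996, chromosome 1, 226163347 to 226217342), was measured at 650.4 and 798 CPM in native bladder, 833 and 356 CPM in experimental neobladder, 1406 and 878 CPM in control neobladder, and 33.1 and 21.3 CPM in peritoneum. Peritoneum lay below the other 6 libraries. Peritoneum was 26.6-fold below native bladder (log2 -4.73, edgeR adjusted p = 0.000566), 21.8-fold below experimental neobladder (edgeR adjusted p = 0.000662) and 42.0-fold below control neobladder (edgeR adjusted p = 0.000156). Without experimental neobladder replicate 1, the log2 difference of experimental neobladder minus peritoneum went from 4.45 to 3.74. The 2 control neobladder libraries were above both experimental ones, but the log2 difference of experimental minus control, -0.94 ± 0.54 (interval -2.13 to 0.25), did not pass the test (edgeR adjusted p = 0.233). Fibroblast markers, all 7 matched, summed to 51394 to 69450 CPM in peritoneum against 13494 to 15145 CPM in native bladder, and adipocyte markers, all 6 matched, to 777 to 1191 CPM against at most 69.4 CPM in the other libraries. The part of this cell make-up in the low ALDH1A1 of peritoneum was not tested.

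**Figure D1:**
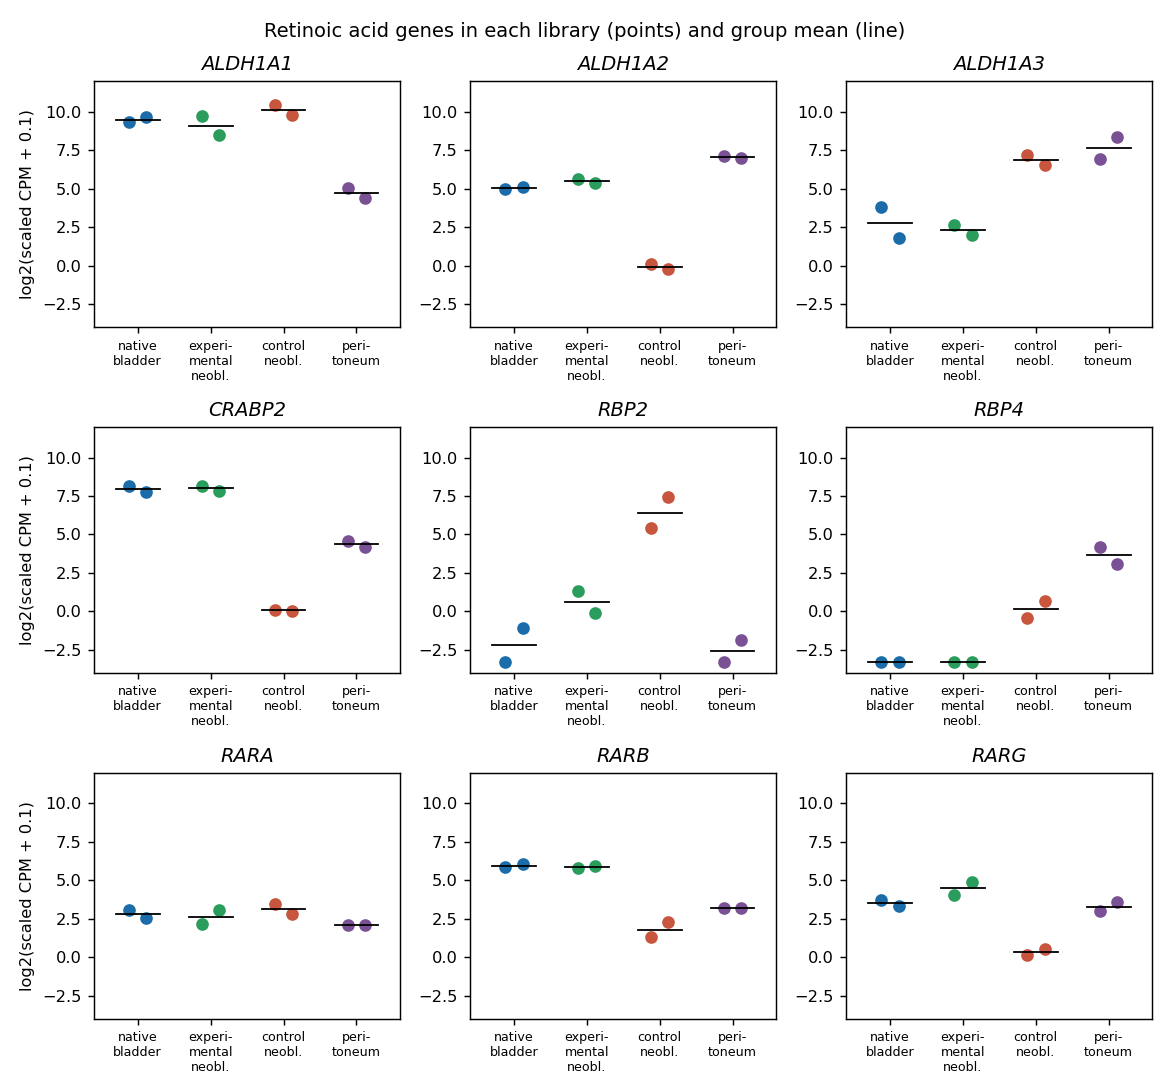
Level of each of the 9 genes in every library, as CPM on a log2(CPM + 0.1) axis, with 1 point per library and a line at the mean of the 2 values of a group. CRABP2, RARB, RARG and ALDH1A2 are low in both control neobladder libraries, while RBP2 and ALDH1A3 are high there.

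Ratios of 2 genes counted within the same library do not depend on how libraries are scaled, and gene length cancels when the same ratio is compared between libraries. The log2 ratio of ALDH1A3 to ALDH1A2 counts was 7.24 and 6.98 in control neobladder, -3.05 and -3.41 in experimental neobladder, -1.20 and -3.36 in native bladder, and -0.16 and 1.36 in peritoneum. The control neobladder libraries were the highest of the 8 by this ratio, and the experimental ones lay within or next to the native bladder range. The log2 ratio of ALDH1A2 to ALDH1A1 separated 3 levels: 2.07 and 2.60 in peritoneum, -4.53 to -3.10 over native bladder and experimental neobladder together, and -10.49 and -10.19 in control neobladder. Within the middle level, native bladder (-4.38 and -4.53) and experimental neobladder (-4.06 and -3.10) did not overlap. These ratios are descriptions of the libraries, with no test.

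**Figure D2:**
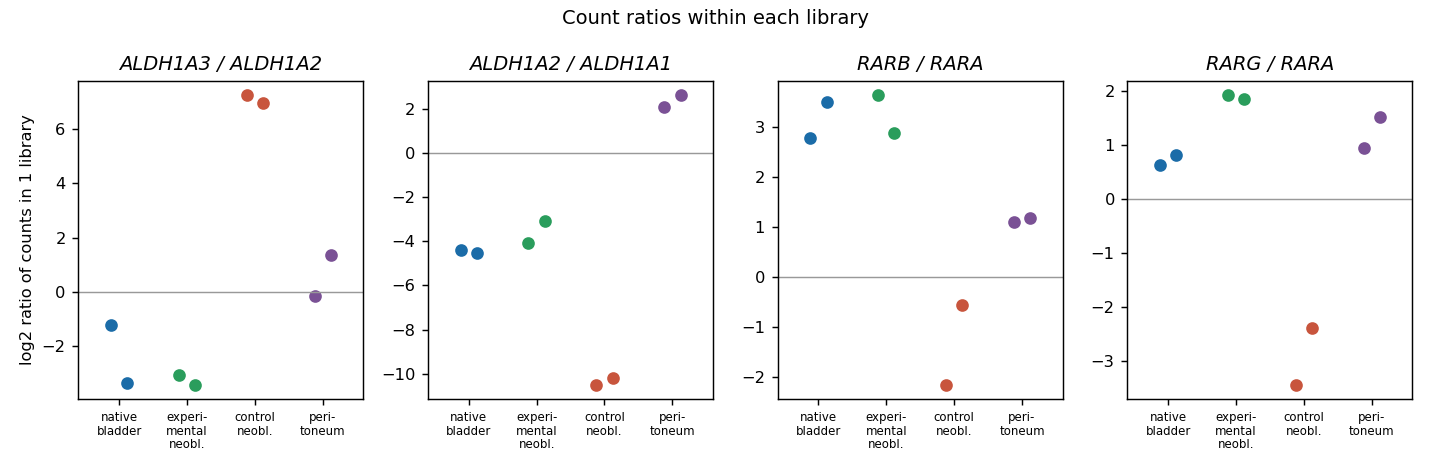
Log2 ratios of counts of 2 genes within a library, 1 point per library, for 2 pairs of dehydrogenases and 2 pairs of receptors. For ALDH1A3 over ALDH1A2 the control neobladder libraries sit at 7.24 and 6.98, and for RARB over RARA at -2.16 and -0.57, apart from the other 6 libraries in both.

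CRABP2, which carries retinoic acid into the nucleus and hands it to the receptors, gave the largest log2 difference between the neobladders among the 9 genes, leaving aside RBP4, whose fold is a bound. The gene (ENSSSCG00000006472, chromosome 4, 93388198 to 93393861) was measured at 286 and 221 CPM in native bladder, 285 and 229 CPM in experimental neobladder, 0.980 and 0.937 CPM in control neobladder (9 and 5 counts), and 23.4 and 18.1 CPM in peritoneum. The native bladder and experimental neobladder values interleave, peritoneum is intermediate and the control neobladder is lowest. Experimental exceeded control neobladder 268-fold (log2 8.04 ± 0.52, edgeR adjusted p = 2.43e-05), and native bladder exceeded it 264-fold (edgeR adjusted p = 1.78e-05). Peritoneum was 12.2-fold below native bladder (edgeR adjusted p = 0.000228), 12.4-fold below experimental neobladder (edgeR adjusted p = 0.000186) and 21.7-fold above control neobladder (edgeR adjusted p = 7.7e-05). The log2 difference between experimental neobladder and native bladder was 0.02, with an interval of -0.78 to 0.82, and its sign changed under 5 alternatives. Summed urothelial markers were lowest in control neobladder, at 66.5 to 154 CPM against 4321 to 8412 CPM in experimental neobladder. Between control neobladder and peritoneum single markers went both ways, with a median log2 difference of 0.38. Of 8 tested, 1 was called higher and 3 lower in control, against 21.6% and 20.6% of all genes. The part of urothelial cells in the CRABP2 differences was not tested.

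FABP5, a lipid carrier that can take retinoic acid to a different nuclear receptor, PPARD, was set beside CRABP2 within each library. The log2 ratio of CRABP2 to FABP5 counts was 1.96 and 1.53 in native bladder, 1.28 and 0.91 in experimental neobladder, -4.45 and -4.70 in peritoneum, and -7.26 and -8.61 in control neobladder. The ratio was thus highest in native bladder, next in experimental neobladder and lowest in control neobladder, with no overlap between groups. FABP5 itself was higher in peritoneum (492 ± 29.2 CPM, SD, n = 2) than in native bladder (75.0 ± 2.12 CPM, log2 2.71, edgeR adjusted p = 0.00348) and in experimental neobladder (119.8 ± 3.29 CPM, edgeR adjusted p = 0.0109). The first of these calls was lost without native bladder replicate 1 (0.0543), the second without peritoneum replicate 1 (0.0565) or either experimental library (0.1 and 0.104).

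RBP2, the cellular retinol-binding protein of absorptive intestinal cells (ENSSSCG00000011663, chromosome 13, 80321024 to 80346032), was high in control neobladder, at 41.9 and 176 CPM from 385 and 940 counts. It was measured at 2.46 and 0.835 CPM in experimental neobladder (29 and 9 counts), 0 and 0.374 CPM in native bladder (5 counts in all), and 0 and 0.178 CPM in peritoneum (2 counts in all). The control neobladder libraries differed from each other but were both above every other library. Control exceeded experimental neobladder 66.2-fold (log2 difference of experimental minus control -6.03 ± 0.93, edgeR adjusted p = 0.00147). That log2 difference was -4.64 and -6.69 without control replicates 2 and 1, and -6.98 and -5.44 without experimental replicates 1 and 2. Control neobladder exceeded native bladder 584-fold (log2 9.06 ± 1.13, edgeR adjusted p = 0.000437), with log2 values from 7.68 to 13.09 as each of the 4 libraries was left out. Against the 2 counts of peritoneum the ratio was 1147, with an exact Poisson interval of 317 to 9469.9 (edgeR adjusted p = 0.00019), and the log2 difference ran from 8.65 to 13.12 as each of these 4 libraries was left out.

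RBP2 was also the gene with the largest fitted difference between experimental neobladder and native bladder, where it did not pass the test. The experimental neobladder libraries, with 38 counts together, both lay above the native bladder libraries (log2 3.03 ± 1.14, interval 0.49 to 5.57, edgeR adjusted p = 0.502). When genes with low counts were kept in the fit, it was called (edgeR adjusted p = 0.00348), in a setting that raised the calls over all genes from 16 of 16549 to 352 of 26617. Against peritoneum the experimental neobladder had a ratio of 17.3 with an exact Poisson interval of 4.79 to 143, and did not pass either (edgeR adjusted p = 0.0552). Enterocyte markers summed to 61.2 to 67.98 CPM in experimental neobladder and 77.1 to 80.5 CPM in native bladder, with CDX2, which defines intestinal epithelium, at 0 in all 4 libraries. Experimental replicate 1 held 29 of the 38 RBP2 counts. Other intestinal markers went both ways between these groups. VIL1, a brush border protein, was at 15.5 and 2.23 CPM in experimental neobladder against 0.889 and 1.34 CPM in native bladder. CLCA1, a goblet cell product, was at 80.5 and 11.3 CPM against 3.72 and 7.47 CPM. The enterocyte marker ANPEP was lower, at 13.6 and 20.0 CPM against 40.6 and 42.9 CPM. So was the goblet cell marker SPDEF, at 1.02 and 0 CPM against 3.47 and 2.39 CPM. Of 11 enterocyte and 4 goblet cell markers tested, 0 were called, beside 0.0967% of all genes. The goblet cell markers summed to 13.5 to 83.8 CPM in experimental neobladder and 9.61 to 11.4 CPM in native bladder. In control neobladder the enterocyte markers summed to 41608 to 160601 CPM. Most of this was FABP6, at 31351 and 157528 CPM in replicates 1 and 2. Other enterocyte markers moved both ways between these 2 libraries. From replicate 1 to replicate 2, VIL1 went from 2431 to 830 CPM and FABP2 from 57.0 to 120 CPM. The part of intestinal cells in the RBP2 level of either neobladder was not tested.

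RBP4, the retinol carrier of blood plasma that liver and fat secrete (ENSSSCG00000010479, chromosome 14, 105037360 to 105044552), had 0 counts in all 4 libraries of native bladder and experimental neobladder. It was measured at 18.1 and 8.47 CPM in peritoneum (178 and 95 counts) and at 0.653 and 1.499 CPM in control neobladder (6 and 8 counts). Peritoneum was highest and control neobladder next, and neither overlapped any other group. With 3 counts over the 2 libraries as the floor for a group at 0, peritoneum was at least 114-fold above native bladder (edgeR adjusted p = 0.00108) and at least 100.1-fold above experimental neobladder (edgeR adjusted p = 0.00101). It was 12.4-fold above control neobladder (log2 difference of control minus peritoneum -3.67 ± 0.80, edgeR adjusted p = 0.00727). Without peritoneum replicate 1 that difference no longer passed (0.0576), and without control replicate 2 it was -4.30.

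The control neobladder had at least 8.1-fold more RBP4 than experimental neobladder (edgeR adjusted p = 0.0193) and at least 9.24-fold more than native bladder (edgeR adjusted p = 0.0166), from 14 counts in all. The first call was lost without either experimental library (0.0841 and 0.0914) and the second without either native bladder library (0.0779 and 0.076). ADIPOQ, a hormone made by fat cells, was at 618 and 381 CPM in the peritoneum libraries. Of 5 adipocyte markers tested, 5 were called higher in peritoneum than in native bladder, against 9.93% of all genes. LEP, also listed, was at 0 in both peritoneum libraries. CIDEC, another, was at 102 and 72.0 CPM in peritoneum and 67.95 and 44.4 CPM in control neobladder. The part of fat tissue in the RBP4 level was not tested. RBP4 overlaps PDE6C in the RefSeq annotation, and PDE6C had 3 and 15 counts in the peritoneum libraries and at most 6 in the other libraries. The part of this overlap in the RBP4 counts was not tested.

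Among the receptors, RARB and RARG were low in the control neobladder and RARA was not shown to differ. RARB, whose own gene is a direct target of retinoic acid (ENSSSCG00000011212, chromosome 13, 12336387 to 12507688), was measured at 56.9 and 65.1 CPM in native bladder, 54.8 and 60.3 CPM in experimental neobladder, 2.40 and 4.68 CPM in control neobladder (22 and 25 counts), and 8.97 and 9.27 CPM in peritoneum. Native bladder and experimental neobladder overlapped, and both lay above peritoneum, which lay above control neobladder. Experimental exceeded control neobladder 16.2-fold (log2 4.05 ± 0.43, edgeR adjusted p = 0.000173), and native bladder exceeded control 17.2-fold (edgeR adjusted p = 0.000144). Peritoneum was 6.7-fold below native bladder (edgeR adjusted p = 0.000946) and 6.31-fold below experimental neobladder (edgeR adjusted p = 0.000957). Peritoneum was 2.58-fold above control neobladder (edgeR adjusted p = 0.0199), and this call was lost when the 2 groups were fitted alone (0.148) and without peritoneum replicate 1 (0.0704), peritoneum replicate 2 (0.0838) or control replicate 1 (0.0526). For experimental neobladder minus native bladder the log2 difference was -0.09, with an interval of -0.89 to 0.72.

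RARG, the receptor known from stratified epithelia and skin (ENSSSCG00000000258, chromosome 5, 18436267 to 18458625), was measured at 12.8 and 10.1 CPM in native bladder, 16.6 and 29.8 CPM in experimental neobladder, 0.980 and 1.31 CPM in control neobladder (9 and 7 counts), and 7.95 and 11.8 CPM in peritoneum. The control neobladder was below all other libraries, the experimental neobladder above all others, and native bladder and peritoneum overlapped. Experimental exceeded control neobladder 20.2-fold (log2 4.35 ± 0.54, edgeR adjusted p = 0.000408). Native bladder exceeded control 10.01-fold (log2 difference of control minus native bladder -3.34 ± 0.53, edgeR adjusted p = 0.00176) and peritoneum exceeded it 8.6-fold (edgeR adjusted p = 0.00127). The excess of experimental neobladder over native bladder, 1.02 ± 0.44 on the log2 scale (interval 0.05 to 1.99), did not pass after adjustment over all genes (edgeR adjusted p = 0.587). The excess over peritoneum, 1.23 (interval 0.25 to 2.21), did not pass either (edgeR adjusted p = 0.0666). The RefSeq table gives the locus matched to this symbol the biotype lncRNA, not protein-coding.

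RARA, the most widely expressed receptor of the family (ENSSSCG00000017475, chromosome 12, 22047449 to 22085759), was measured at 8.32 and 5.75 CPM in native bladder, 4.41 and 8.25 CPM in experimental neobladder, 10.7 and 6.93 CPM in control neobladder, and 4.18 and 4.10 CPM in peritoneum. The native bladder and both neobladder groups overlapped, and peritoneum lay just below all of them. In a test for any difference among the 4 groups RARA was not called (edgeR adjusted p = 0.337), and its difference of experimental minus control neobladder was -0.48 on the log2 scale (interval -1.61 to 0.64). The sign of that difference turned with library totals alone (0.22). The other 8 genes were called in the 4-group test, against 44.5% of all genes tested.

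Set against RARA in the same library, RARB was lowest in control neobladder as well. The log2 ratio of RARB to RARA counts was 2.77 and 3.50 in native bladder, 3.63 and 2.87 in experimental neobladder, 1.10 and 1.18 in peritoneum, and -2.16 and -0.57 in control neobladder. RARG showed the same kind of pattern, with log2 ratios to RARA of -3.44 and -2.40 in control neobladder and of 0.63 to 1.91 in the other 6 libraries. The RARB to RARG ratio spanned less: it ran from 1.02 to 2.69 over the bladder and both neobladder groups and was 0.17 and -0.34 in peritoneum.

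Counted over the genes, 7 of the 9 differed between experimental and control neobladder, 4 higher (ALDH1A2, CRABP2, RARB and RARG) and 3 lower (ALDH1A3, RBP2 and RBP4) in the experimental neobladder, where 21.7% of all genes tested were called, 10.4% higher and 11.3% lower. The median log2 difference of the 9 genes was -0.48 against 0.11 over all genes. Control neobladder against native bladder also gave 7 calls, 3 higher (ALDH1A3, RBP2 and RBP4) and 4 lower (ALDH1A2, CRABP2, RARB and RARG) in control, against 22.3% of all genes (11.2% higher, the rest lower). These 2 comparisons share the control neobladder libraries and are not independent of each other.

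Between experimental neobladder and native bladder 0 of 9 genes were called by edgeR, against 0.0967% of all genes (0.0423% higher and 0.0544% lower). DESeq2 also called 0, and 2 genes, RBP2 and RARG, had an unadjusted p under 0.05 in edgeR (0.0236 and 0.0419). With so few calls in the whole table, 0 of 9 does not set these genes apart, and the 95% intervals allow differences of the sizes given with each gene.

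Against peritoneum, the experimental neobladder gave 6 calls, with ALDH1A1, CRABP2 and RARB higher and ALDH1A2, ALDH1A3 and RBP4 lower, where 24.2% of all genes were called (12.4% higher and 11.8% lower). Control neobladder against peritoneum gave 7 calls, with ALDH1A1 and RBP2 higher and ALDH1A2, RBP4, CRABP2, RARB and RARG lower, where 42.3% were called (21.6% higher and 20.6% lower). Peritoneum against native bladder gave 6 calls, with ALDH1A2, ALDH1A3 and RBP4 higher and ALDH1A1, CRABP2 and RARB lower in peritoneum, where 21.1% were called (9.93% higher, the rest lower). The experimental neobladder and native bladder were thus above or below peritoneum for 6 genes each, and both comparisons use the same peritoneum libraries.

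**Figure D3:**
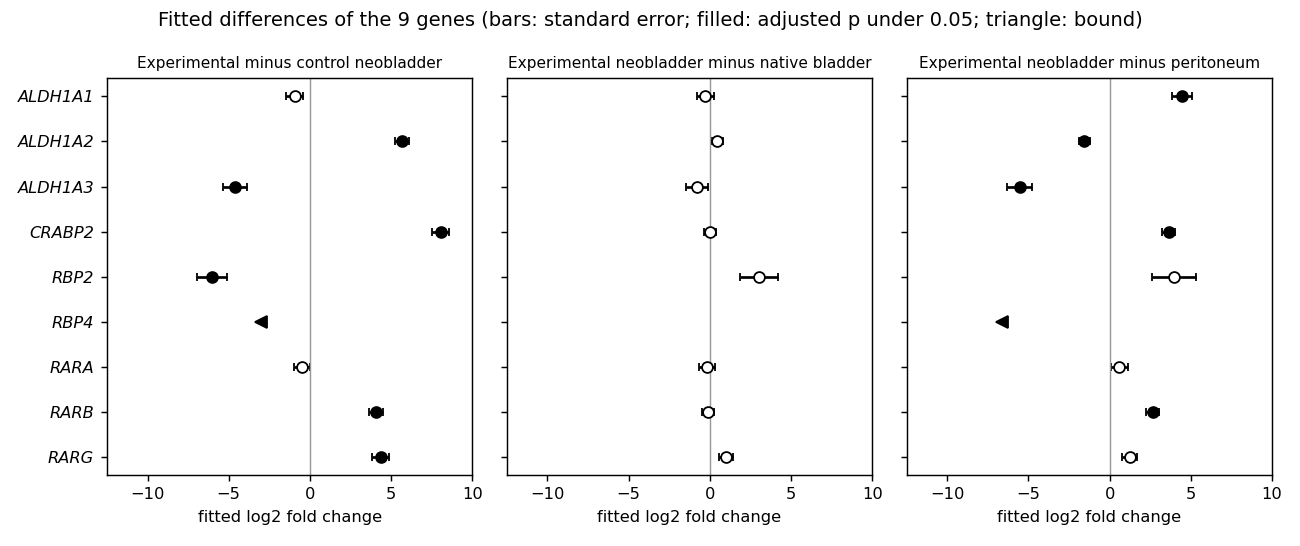
Fitted log2 fold change of the 9 genes in experimental neobladder minus control neobladder, native bladder and peritoneum, with bars of 1 SE; filled symbols have an edgeR adjusted p under 0.05, triangles mark RBP4 bounds, and RBP4 has no symbol where both groups had 0 counts. Between experimental neobladder and native bladder no symbol is filled, and between experimental and control neobladder 7 of 9 are.

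The genes were also read against 63 other listed retinoid genes, of which 58 matched a gene in the files and 51 were tested. Between experimental and control neobladder 6 of the 51 were higher and 10 lower in experimental, where 10.4% of all genes tested were higher and 11.3% lower, with a median log2 difference of 0.06 against 0.11 over all genes. Of the 16, CCR9, DHRS9, RXRG and TGM2 remained called under every alternative. Leaving out experimental replicate 2 ended the calls of MEIS1, MEIS2, ITGA4, RXRA, CD38, RDH11, DHRS3, DHRS4, BCO2 and CRABP1 (edgeR adjusted p from 0.0595 to 0.244), and leaving out experimental replicate 1 those of MEIS2, CD38, RDH11, DHRS3, DHRS4, BCO2 and CRABP1 (0.0506 to 0.111). The call of BCO2 was also lost without control replicate 2 (0.0617), that of CRABP1 without control replicate 1 (0.0756) and without any single library of native bladder or peritoneum (0.0526 to 0.0551), and that of DHRS3 without any of those 4 (0.0532 to 0.0727). The number of calls among the 51 fell without either experimental library and rose without control replicate 1. Over all genes tested it moved in the same directions, so these changes do not set the retinoid genes apart. Between experimental neobladder and native bladder 0 of the 51 were called by edgeR or DESeq2, and 3 had an unadjusted edgeR p under 0.05. With 0.0967% of all genes called by edgeR there, 0 of 51 does not set them apart.

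Of 11 tested genes of retinol uptake and storage, 3 were called between the neobladders, each lower in experimental, beside the 21.7% of all genes called in either direction. ISX, an intestinal transcription factor that represses carotenoid uptake, had 0.297 ± 0.42 CPM in the experimental against 63.3 ± 22.2 CPM in the control neobladder (SD, n = 2; log2 -7.64, edgeR adjusted p = 0.00073, but 0.198 by DESeq2; log2 -12.35 and -6.69 without experimental replicates 1 and 2). BCO2, a carotenoid-cleaving enzyme, was lower (log2 -4.58, edgeR adjusted p = 0.00742), as was DGAT1, which can esterify retinol (7.91 ± 0.437 against 37.8 ± 4.44 CPM, edgeR adjusted p = 0.00227, lost with library totals alone, 0.0635). LRAT, the main retinol-esterifying enzyme, was not called between the neobladders (43.8 ± 24.8 and 21.9 ± 3.11 CPM). In peritoneum it had 1 count against 971 in experimental neobladder, a ratio of 921 with an exact Poisson interval of 165 to 36384 (edgeR adjusted p = 5.23e-05). The log2 difference of 9.52 was 11.87 and 8.62 without peritoneum replicates 1 and 2 and 8.81 without experimental replicate 2.

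Among enzymes that interconvert retinol and retinal, 4 of 11 tested were called between the neobladders, against 21.7% of all genes. DHRS9, which oxidises retinol, had 4.42 ± 0.346 CPM in the experimental against 60.9 ± 7.14 CPM in the control neobladder (log2 -3.78, edgeR adjusted p = 0.000203). RDH11 was also lower in experimental, at 121 ± 22.3 against 456 ± 133 CPM (edgeR adjusted p = 0.00776), and DHRS4 was lower at 20.3 ± 1.85 against 89.9 ± 50.6 CPM (log2 -2.14, edgeR adjusted p = 0.00707; log2 -1.41 without control replicate 2). With library totals alone both calls were lost (0.119 and 0.0701). DHRS3, which reduces retinal back to retinol and is itself induced by retinoic acid, was higher in experimental at 625 ± 105 against 198 ± 53.5 CPM (edgeR adjusted p = 0.0291). RDH10, the main retinol dehydrogenase of the embryo, was at 15.2 to 26.2 CPM as group means and was not called in the 4-group test (edgeR adjusted p = 0.46).

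Of the retinoic acid-degrading enzymes, CYP26B1 was highest in peritoneum and CYP26A1 in control neobladder. CYP26B1 was at 7.91 ± 0.529 CPM in peritoneum and 0.271 ± 0.04 CPM in native bladder (log2 difference of peritoneum minus native bladder 4.81, edgeR adjusted p = 0.00389; 0.0565 without native bladder replicate 1). CYP26A1 had 32 counts in control neobladder, 7 in experimental neobladder, 6 in peritoneum and 0 in native bladder. It was at least 21.4-fold higher in control neobladder than in native bladder (edgeR adjusted p = 0.0436), a call lost without either native bladder library (0.212 and 0.19), experimental replicate 2 (0.0539) or control replicate 2 (0.138), and with library totals alone (0.0669). CYP26C1 had 0 counts in every library. Of the 2 clearance genes tested, 0 were called between the neobladders by edgeR or DESeq2, and 0 had an unadjusted edgeR p under 0.05. With 21.7% of all genes called by edgeR, 0 of 2 does not set them apart.

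Of the 6 carriers and partner receptors, 3 were called between the neobladders, against 21.7% of all genes. RXRA, a retinoid X receptor that pairs with the retinoic acid receptors, had 50.3 ± 11.5 CPM in the experimental against 18.4 ± 2.53 CPM in the control neobladder (log2 1.45, edgeR adjusted p = 0.0217; 0.174 without experimental replicate 2 and 0.0841 with the 2 groups alone). RXRG moved the other way, at 3.04 ± 0.496 against 42.2 ± 2.28 CPM (log2 -3.79, edgeR adjusted p = 0.00222). CRABP1, the second cellular retinoic acid-binding protein, was at 6.99 ± 3.89 against 1.18 ± 1.51 CPM (log2 2.76, edgeR adjusted p = 0.0451), with log2 values of 2.06, 1.65 and 5.87 without experimental replicate 2, control replicate 1 and control replicate 2. Of 10 receptor coregulators 0 were called by edgeR or DESeq2 in this comparison, with 2 at an unadjusted edgeR p under 0.05. By edgeR 21.7% of all genes were called.

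Of 16 tested genes known to respond to retinoic acid, 4 were higher and 4 lower in experimental than in control neobladder, against 10.4% and 11.3% of all genes. TGM2, a transglutaminase induced by retinoic acid in many cells, was at 143 ± 29.5 CPM in experimental, 98.9 ± 8.65 CPM in native bladder, 66.7 ± 33.3 CPM in peritoneum and 4.83 ± 1.79 CPM in control neobladder (experimental minus control log2 4.86, edgeR adjusted p = 0.000184). The homeobox genes MEIS1 (69.5 ± 6.41 against 18.6 ± 5.32 CPM, edgeR adjusted p = 0.0072) and MEIS2 (13.5 ± 0.354 against 3.32 ± 2.85 CPM, edgeR adjusted p = 0.0248) were higher in experimental as well, and DHRS3, described above, is the fourth. For MEIS2 the log2 difference of 1.95 moved to 3.38 when control replicate 1 was left out and to 1.34 when replicate 2 was. The 4 lower genes were ISX, CD38 (19.6 ± 0.572 against 64.3 ± 23.1 CPM, edgeR adjusted p = 0.018) and the gut-homing receptors of lymphocytes CCR9 (2.30 ± 1.54 against 33.1 ± 2.88 CPM, log2 -3.84, edgeR adjusted p = 0.00225; log2 -4.74 without experimental replicate 1) and ITGA4 (4.82 ± 3.01 against 20.8 ± 1.36 CPM, log2 -2.11, edgeR adjusted p = 0.0165; log2 -2.92 without experimental replicate 1). With library totals alone the calls of CD38 and ITGA4 were lost (0.219 and 0.145). All 7 T and B cell markers summed to 319 to 519 CPM in control and 113 to 216 CPM in experimental neobladder, and their part in the CCR9, ITGA4 and CD38 differences was not tested.

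**Figure D4:**
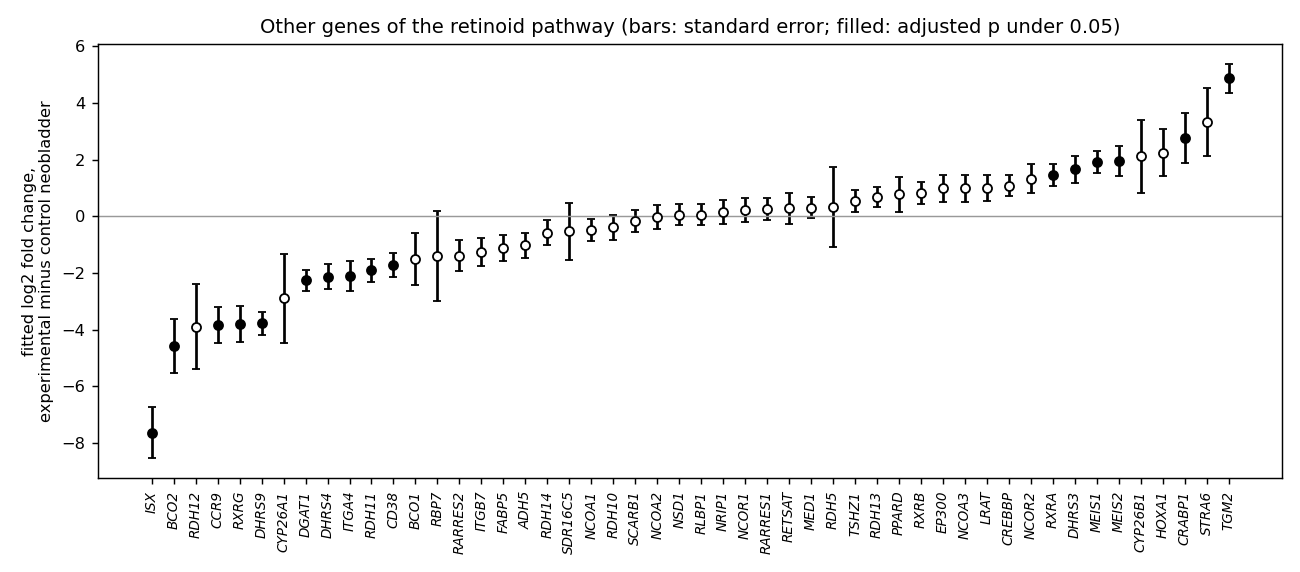
Fitted log2 fold change of experimental minus control neobladder for other retinoid genes tested, in order of size, with bars of 1 SE and filled points where the edgeR adjusted p is under 0.05. The 16 filled points lie on both sides of 0, from ISX at -7.64 to TGM2 at 4.86, and most points between them are open.

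For each gene with a mean of at least 5 CPM, the genes with the most similar pattern were listed by Pearson's r of log2 CPM over the 8 libraries, among 9864 candidates, as a description with no test. CRABP2 was followed by NFE2L3 (r = 0.998), NDRG2 (0.992) and ARSJ (0.989), and RARB by ADGRG2 (0.993), CXXC5 (0.991) and PPARG (0.989). PPARG, a nuclear receptor expressed in urothelium and fat, averaged 277 CPM in native bladder, 342 CPM in experimental neobladder, 20.8 CPM in control neobladder and 44.2 CPM in peritoneum. For RARG the closest were KDM1A (0.991), PACS1 (0.989) and FAH (0.987), for ALDH1A2 APBB1 (0.992), ERC1 (0.991) and ULK2 (0.990), and for ALDH1A1 TOM1L1 (0.995), TCN1 (0.994) and MRPL4 (0.993). ALDH1A3 was closest to PCSK5 (0.975), PLEKHB1 (0.972) and SYNE3 (0.969), RBP2 to DPEP1 (0.988), CARHSP1 (0.985) and GNLY (0.983), and RARA to PRR5L (0.973), TMCC3 (0.962) and ARHGDIA (0.940). The 8 points of each correlation come from 4 tissues, so a high r reflects mainly the order and spacing of the group levels.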

How the data were processed

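Counts per Ensembl gene were deposited by the authors as 1 file of raw counts per library. Per the submitters' processing notes, Trim Galore, HISAT2 and HTSeq 0.11.1 were used with the Sscrofa11.1 assembly; settings, strand use and annotation release are not given in the sources used here. Per the labels' protocols, total RNA was amplified with Smart-seq2 before TruSeq library preparation.

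The counts were fitted with edgeR 4.0.16 (limma 3.58.1, R 4.3.3): filterByExpr kept 16549 of 31907 genes, libraries were scaled by TMM, all 8 libraries entered 1 robust quasi-likelihood fit (4 residual degrees of freedom, biological coefficient of variation 0.38), and p-values were adjusted by Benjamini-Hochberg over all genes tested, with a threshold of 0.05. SE is the log2 difference over the square root of F, and 95% intervals use the t distribution of the fit. Where a group had no counts, the fold is a bound against 3 counts over its 2 libraries; with 1 to 3 counts it is a ratio with an exact Poisson interval. Both cover counting error only. Gene positions and overlaps came from RefSeq's table for Sscrofa11.1; transcript lengths were not used, so levels of different genes were not compared.

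The 9 genes and all lists were chosen with earlier results of these data known. Named were all 9 genes in every comparison, list members called in experimental neobladder against control or native bladder, up to 4 per list by smallest p, each list's member with the highest mean, and 3 genes of like pattern per gene; not all eligible genes are described, 1 listed gene is counted but not reported here, and LRAT, RDH10, the CYP26 genes, FABP5, WT1, CDX2 and ADIPOQ were named after their values were seen. Ratios within a library were added after the data were seen. As alternatives, each library was left out, the 2 groups compared were fitted alone, low counts were kept, the replicate number entered as a block, scaling used library totals or the size factors of DESeq2 1.42.0, and DESeq2 itself was run. On simulated data with 200 of 16549 genes changed by 3 on the log2 scale between the neobladders, the test called 194 genes, 190 of them changed. Every simulated gene had the same dispersion, 0.146, and only genes with a mean of at least 5 CPM were changed. RBP4, with a mean of 3.59 CPM, lies outside that range. Performance with a spread that differs from gene to gene was not tested. No gene was called for peritoneum against native bladder, where none was changed. How the test performs when many more genes differ was not tested, and 3584 were called between the neobladders in these libraries.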

Additional observations from a re-analysis of the deposited data

How the results depend on the processing

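Of 33 differences called among the 9 genes, 27 remained called under every alternative, 6 were lost at least once and 0 reversed; of 96 called among the other retinoid genes, 37 remained called under every alternative, 59 were lost at least once and 0 reversed. With no low-count filter, 1 of the 9 genes (RBP2) was called between experimental neobladder and native bladder in place of 0, while calls over all genes went from 16 of 16549 to 352 of 26617. With 1 library left out, the number of the 9 genes called changed in every comparison except experimental neobladder against native bladder. In the test over 4 groups it did not change either. Over all genes the number of calls moved in every comparison.

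Deviations of same-numbered libraries from their group means correlated at -0.08 to 0.091 across genes. With 2 libraries a group and different tissues, this cannot tell whether same-numbered libraries came from the same animal. With the replicate number as a block, 7 of the 9 genes were called between experimental and control neobladder, 0 between experimental neobladder and native bladder, 7 between control neobladder and native bladder, 7 between experimental neobladder and peritoneum (6 without it; RBP2 was added at an edgeR adjusted p of 0.0366), 7 between control neobladder and peritoneum, and 6 between peritoneum and native bladder. Over all genes the block gave 3140 calls between experimental and control neobladder against 3584 without it.

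Signs turned only for differences that were not called. With library totals alone, log2 differences became 0.22 for RARA in experimental minus control neobladder, -0.06 for CRABP2 in experimental neobladder minus native bladder, and -0.13 for ALDH1A1 and -0.46 for RARA in control neobladder minus native bladder. With no low-count filter CRABP2 was at -0.01 in experimental neobladder minus native bladder. With 1 library left out, differences of experimental neobladder minus native bladder ran from -1.02 to 0.21 for ALDH1A1 (above 0 without experimental replicate 2), -1.45 to 0.56 for ALDH1A3 (without native replicate 1), -0.14 to 0.22 for CRABP2 (-0.14 without native replicate 2 or experimental replicate 1, 0.00 without peritoneum replicate 2), -0.67 to 0.24 for RARA (0.14 without native replicate 1, 0.24 without experimental replicate 1) and -0.18 to 0.02 for RARB (without native replicate 2). RARA ran from -0.04 (without control replicate 1) to 0.61 in control neobladder minus native bladder, and ALDH1A3 from -1.44 to 0.03 (without peritoneum replicate 2) in control neobladder minus peritoneum. In peritoneum minus native bladder RBP2 ran from -4.09 to 3.09 (without native replicate 2) and RARG from -0.58 to 0.02 (without peritoneum replicate 1). The causes were not tested.

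With 2 libraries a group, differences as small as those of RARA and ALDH1A1 between the neobladders were not covered by the simulation, and genes with under 20 counts in a group, such as ALDH1A2, CRABP2, RARG and RBP4 in control neobladder, have folds limited by counting error.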
